A study of Mus musculus with 16 samples.

Results

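Potassium channel genes were compared between interscapular brown adipose tissue (BAT) and subcutaneous white adipose tissue (sWAT) of mice. The members were the genes whose symbol in the array annotation starts with Kcn, counting only probe sets annotated to a single symbol. This rule, which uses no measured value, gave 84 genes read by 167 probe sets, of 18194 genes and 34958 single-symbol probe sets in all. The animals were untreated male LACA mice of 25 ± 3 g on standard chow, and the sources used here give no age. Each tissue had 4 replicates, each hybridised to 2 Affymetrix mouse genome arrays, so that 8 BAT and 8 sWAT arrays entered. The 2 arrays of a replicate were averaged and n was 4 per tissue. The study's methods describe both tissues as dissected from each of 4 mice.

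Potassium channels let potassium leave the cell and thereby hold or restore a negative membrane potential. Voltage-gated channels open on depolarisation, inward rectifiers and two-pore-domain channels carry the resting current, and calcium-activated channels couple the membrane potential to calcium release. Accessory subunits set where and how fast the pores open. In brown adipocytes, noradrenaline depolarises the membrane before heat production starts, and a two-pore-domain leak current is known in mouse to oppose that depolarisation and limit thermogenesis. Lymphocytes, macrophages, muscle fibres and vascular smooth muscle, all of which can lie within a fat depot, each carry potassium channels of their own.

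The deposited values are log2 values relative to each probe set's median over the 16 arrays, so they give no expression level and no zero, and only differences between tissues are read from them. Beside each gene stands its difference, BAT minus sWAT in log2 units, with its standard error from limma's moderated test and a p-value adjusted over all 18194 genes by the Benjamini-Hochberg method. A gene was called at an adjusted p under 0.05. Probe sets of a gene were averaged unless stated.

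The labels were only partly borne out by the data. Ucp1, the uncoupling protein that defines brown fat, had values of 4.33, 4.53, 4.39 and 2.75 in BAT replicates 1 to 4, against -2.88, -2.93, -5.18 and -3.33 in the sWAT replicates. Xist, which is transcribed from the inactive X chromosome of females, stood at 5.74, 6.26 and 6.36 in BAT replicates 1 to 3 and at -0.26 in BAT replicate 4, against -0.27 to -0.11 in sWAT. Eif2s3y, Kdm5d and Uty, which lie on the Y chromosome, were low in the same 3 BAT replicates only. These values go against the male label of BAT replicates 1 to 3 and against sWAT and BAT of the same number coming from a single animal, so sex and tissue cannot be told apart in those 3 pairs and pair 4 is also given separately. The second array of BAT replicate 1 and the first array of sWAT replicate 3 had a low 5' signal relative to the 3' end, at -3.56 and -4.79 log2 units against -1.23 to 0.46 in the other arrays, and correlated with their partner arrays at 0.51 and 0.34, where the other pairs of arrays reached 0.85 to 0.92.

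The depots also differed in other cells. Of 15 skeletal muscle fibre markers 14 were higher in BAT, with replicate means of 1.73 to 3.56 in BAT against -1.44 to -1.24 in sWAT. All 9 measured B cell markers and 9 of 10 T cell markers were lower in BAT, with B cell means of -2.36 to -1.92 in BAT against 2.11 to 2.86 in sWAT and T cell means of -1.81 to -1.09 in BAT against 1.56 to 2.25 in sWAT. Macrophage markers were lower in 6 of 9 and higher in 1, and their replicate means overlapped, at -0.98 to 0.15 in BAT and 0.06 to 0.72 in sWAT. All 9 measured mitosis markers were lower in BAT, with means of -1.78 to -0.62 in BAT against 0.86 to 1.70 in sWAT, and BAT replicate 4 was the closest to sWAT. Of 9 measured white adipocyte markers 5 were lower (Hoxc8, Hoxc9, Hoxc10, Nnat and Retn) and 4 were not called, with means of -1.01 to -0.11 in BAT against 0.26 to 0.51 in sWAT. All 13 measured brown adipocyte markers were higher in BAT. Within BAT, replicate 4 had the highest muscle mean, 3.56, and the lowest brown adipocyte mean, 1.46. In whole tissue, fewer cells of a type and less RNA per cell cannot be told apart. The part of these cells in any result below was not tested.

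Of the 84 Kcn genes, 18 were higher in BAT, 9 were lower and 57 were not called. Over all genes tested 21% were called higher and 17.5% lower, so the Kcn share called higher, 21.4%, lay at the background and the share called lower, 10.7%, lay under it. At a difference of at least 2-fold, 4 genes were higher (Kcna5, Kcnk3, Kcns1 and Kcnc2) and 3 were lower (Kcnn4, Kcne4 and Kcnk6), which were 4.76% and 3.57% of the family against 7.13% and 8% of all genes. Without the 2 arrays of low 5' signal, 26 genes were higher and 9 lower (28.7% and 20.5% of all genes), and these held all 27 of the genes called with every array. Of the 84 differences 61 were under 0.5 log2 units in size, beside 11721 of 18194 over all genes. The median difference over the family was 0.22, against 0.15 over all genes. In the family 66 of the differences were positive and 18 negative, beside 11404 and 6790 over all genes. In 29 genes all 4 BAT replicates lay above all 4 sWAT replicates and in 9 genes below them, against 28% and 17.4% of all genes.

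**Figure D1:**
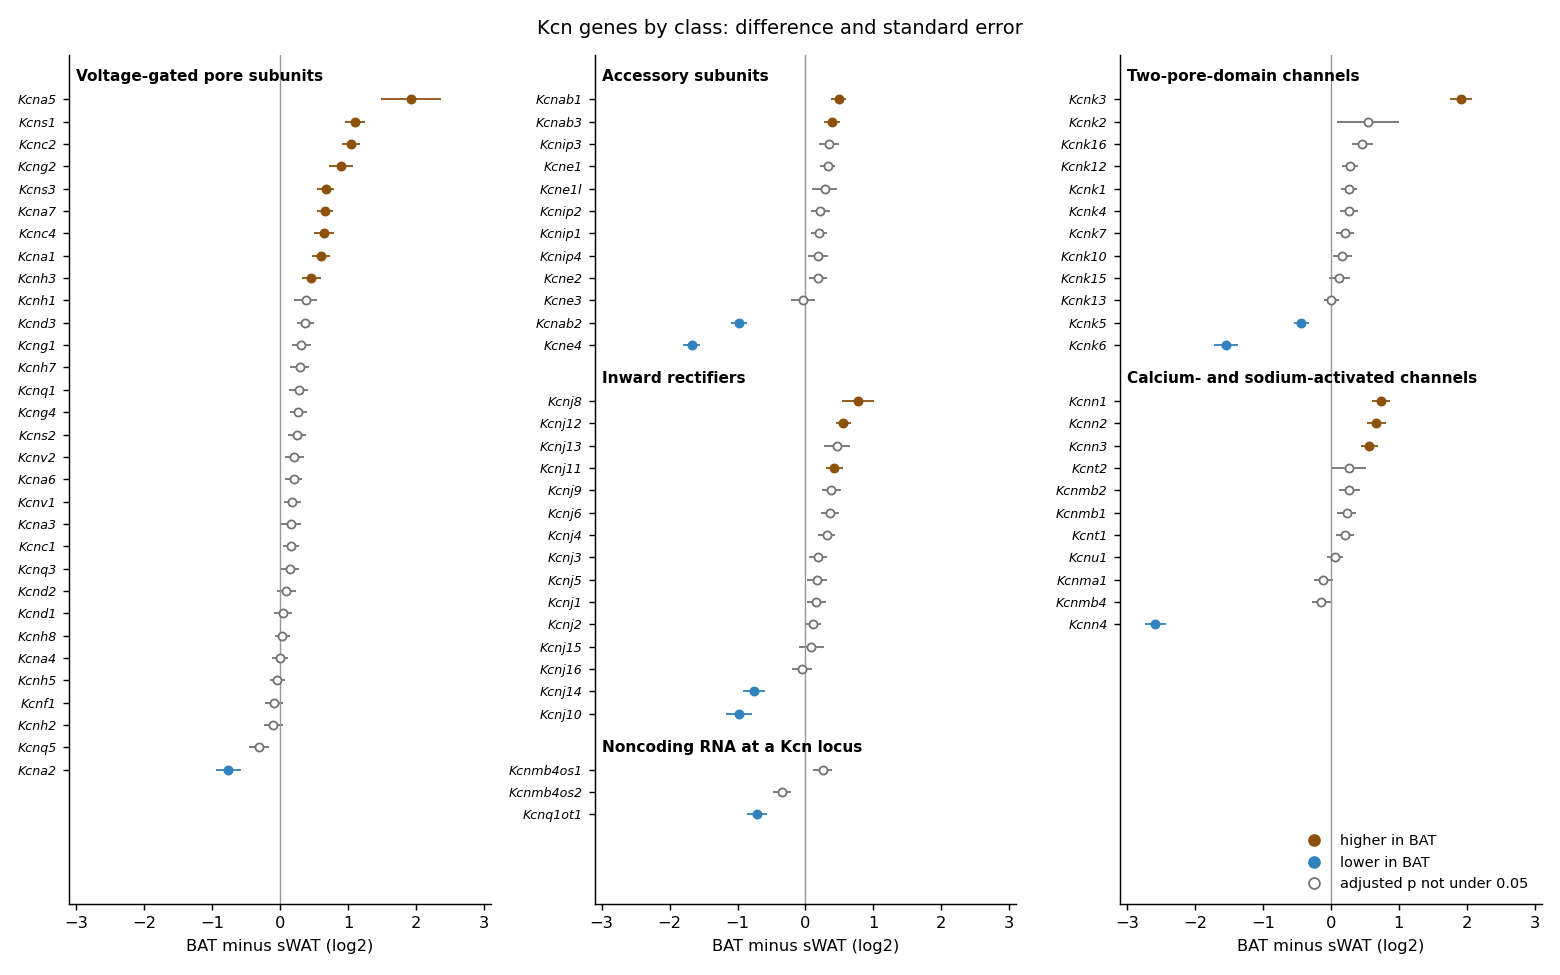
Difference between BAT and sWAT (BAT minus sWAT, log2, horizontal axis) for each of the 84 Kcn genes, grouped by channel class; points are the fitted difference and bars its standard error (n = 4 per tissue), filled where the adjusted p was under 0.05. The largest differences, Kcna5 and Kcnk3 to the right and Kcnn4, Kcne4 and Kcnk6 to the left, lie far from the open points, most of which sit within 0.5 of 0.

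The small positive offset was not even over replicates. The median over the Kcn genes was 0.28, 0.13, 0.00 and 0.10 in BAT replicates 1 to 4, against -0.15, -0.11, 0.00 and -0.08 in the sWAT replicates. BAT replicate 1 was thus the highest and the replicates of number 3 were level in this median. BAT replicate 1 includes an array of low 5' signal, and on that array the Kcn median was 0.40, against 0.17 on the other array of the replicate. The median difference over the family was 0.20 when both arrays of low 5' signal were left out, against 0.22 with them. Within each of the 5 protein-coding classes the median difference lay between 0.19 and 0.25.

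Upstream sequence is shown for the genes past 2-fold, which had the largest called differences of the family. The RefSeq table (build GRCm38.p6) held 5 of the 7, and Kcnk3 and Kcnk6 are named only. Each line gives the 250 bases before the start of transcription, 5' to 3' on the strand of the gene, with matches to 3 motifs, or to their reverse complements, in capitals. CAGCTG is a form of the E-box that muscle transcription factors bind, and E-boxes of other letters were not searched or marked. A further motif, GGGCGG, is the GC-box of Sp factors. The last, AGGAAG, is a motif of Ets factors.
Kcnn4 (chr7:24370013-24370262, plus strand): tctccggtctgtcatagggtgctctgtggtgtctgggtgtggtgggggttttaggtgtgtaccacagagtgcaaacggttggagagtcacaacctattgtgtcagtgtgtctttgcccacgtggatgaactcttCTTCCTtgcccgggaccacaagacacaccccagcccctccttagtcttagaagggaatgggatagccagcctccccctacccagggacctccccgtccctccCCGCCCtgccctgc
Kcne4 (chr1:78816661-78816910, plus strand): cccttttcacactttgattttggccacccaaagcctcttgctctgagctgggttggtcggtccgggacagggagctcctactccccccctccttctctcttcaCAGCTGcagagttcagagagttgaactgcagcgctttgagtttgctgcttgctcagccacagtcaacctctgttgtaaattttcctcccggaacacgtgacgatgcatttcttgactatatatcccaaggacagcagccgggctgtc
Kcna5 (chr6:126535556-126535805, minus strand): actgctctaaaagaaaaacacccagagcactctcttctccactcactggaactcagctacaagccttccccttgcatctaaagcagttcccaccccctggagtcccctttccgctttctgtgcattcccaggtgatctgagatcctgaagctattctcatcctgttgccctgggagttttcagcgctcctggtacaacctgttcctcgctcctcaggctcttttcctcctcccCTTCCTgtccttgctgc
Kcns1 (chr2:164171114-164171363, minus strand): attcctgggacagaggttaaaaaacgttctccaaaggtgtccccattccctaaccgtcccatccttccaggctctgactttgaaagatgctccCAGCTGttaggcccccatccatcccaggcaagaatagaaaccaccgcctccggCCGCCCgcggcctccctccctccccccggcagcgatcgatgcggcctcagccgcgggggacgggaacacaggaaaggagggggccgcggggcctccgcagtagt
Kcnc2, first of 4 starts (chr10:112269767-112270016, plus strand): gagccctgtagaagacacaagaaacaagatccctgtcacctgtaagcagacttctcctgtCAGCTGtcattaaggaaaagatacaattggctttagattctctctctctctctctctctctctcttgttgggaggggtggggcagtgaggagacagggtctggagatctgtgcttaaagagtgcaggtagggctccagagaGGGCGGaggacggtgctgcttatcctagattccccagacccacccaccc

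No capitals overlap in these windows. Kcns1 and Kcnc2, both higher in BAT, each held CAGCTG and a GC-box. For Kcnc2 the GC-box was in the window of the first start only, and CAGCTG in all 4. The windows after the first overlap and share the same CAGCTG. Kcna5 held an Ets motif, and of the genes lower in BAT Kcnn4 held a GC-box and an Ets motif and Kcne4 held CAGCTG. A window without CAGCTG may still hold an E-box of other letters. Of the 32851 upstream windows of this length in RefSeq, 13% held CAGCTG, 32.7% the GC-box and 29.5% the Ets motif. Over the 89 windows of 64 Kcn genes the shares were 24.7%, 44.9% and 37.1%. The nuclear receptor half-site AGGTCA was searched in the same way and was in none of the 5 windows, in 5.62% of the Kcn windows and in 14% of all windows. Kcns1 had 17 CG pairs and 63.2% G and C, against a median of 6 and 52.4% over all windows. A match of letters is not a binding site.

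The two-pore-domain channels, which pass the resting leak current, held a large difference in each direction. Of 12 genes Kcnk3 was higher, Kcnk5 and Kcnk6 were lower and 9 were not called, shares of 8.33% higher and 16.7% lower beside 21% and 17.5% of all genes. Kcnk3 encodes an acid-sensitive leak channel that is known from mouse and human studies to be enriched in brown adipocytes. Its values were 1.2, 1.61, 1.59 and 0.95 in BAT replicates 1 to 4, against -0.58, -0.59, -0.62 and -0.53 in the sWAT replicates. The sWAT replicates were nearly level, all BAT replicates lay well above them, and the lowest BAT replicate was number 4. The difference was 1.92 ± 0.16 (SE, n = 4; adjusted p = 0.000196), or 3.78-fold. BAT replicate 4 alone, the BAT sample whose sex-linked genes match sWAT, stood 1.48 above sWAT replicate 4, and Kcnk3 was still called when this replicate alone was set against sWAT (adjusted p = 0.00166). Its 3 probe sets were all higher in BAT but by unequal amounts, 3.11 ± 0.23 for 1425341_at, 1.40 ± 0.16 for 1425342_a_at and 1.24 ± 0.19 for 1426058_a_at.

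Kcnk6, a weakly conducting two-pore-domain channel that is known in mouse macrophages as a route of potassium efflux, had values of -1.13, -0.87, -1.08 and -0.39 in BAT, against 0.66, 0.39, 0.96 and 0.72 in sWAT. All BAT replicates lay below all sWAT replicates, and BAT replicate 4 was the closest to them. The difference was -1.55 ± 0.18 (adjusted p = 0.000753), or 2.92-fold lower in BAT. Kcnk5, an alkali-sensitive channel of kidney and other epithelia that is also found in lymphocytes, was lower by a small amount, -0.44 ± 0.11 (adjusted p = 0.0208), and this mean joined a probe set at -0.96 (adjusted p = 0.00551) and another at 0.08 that was not called. It lost the call in 3 of the 4 fits that left out a replicate number, with adjusted p-values of 0.0534, 0.119 and 0.0667 without replicates 1, 2 and 4.

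Kcnk2, a mechanosensitive and lipid-sensitive channel, had the widest spread of the class. Its values were 0.34, -0.75, 1.67 and 0.32 in BAT, against -0.22, 0.48, -0.36 and -0.49 in sWAT. BAT replicate 3 was the highest and BAT replicate 2 the lowest of all 8, so the groups overlapped. The difference, 0.54 ± 0.46, was not called (adjusted p = 0.36), and its 95% interval ran from -0.54 to 1.62. It was called when replicate 2 was left out. The other 8 genes of the class differed by 0.00 to 0.46, and none was called.

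**Figure D2:**
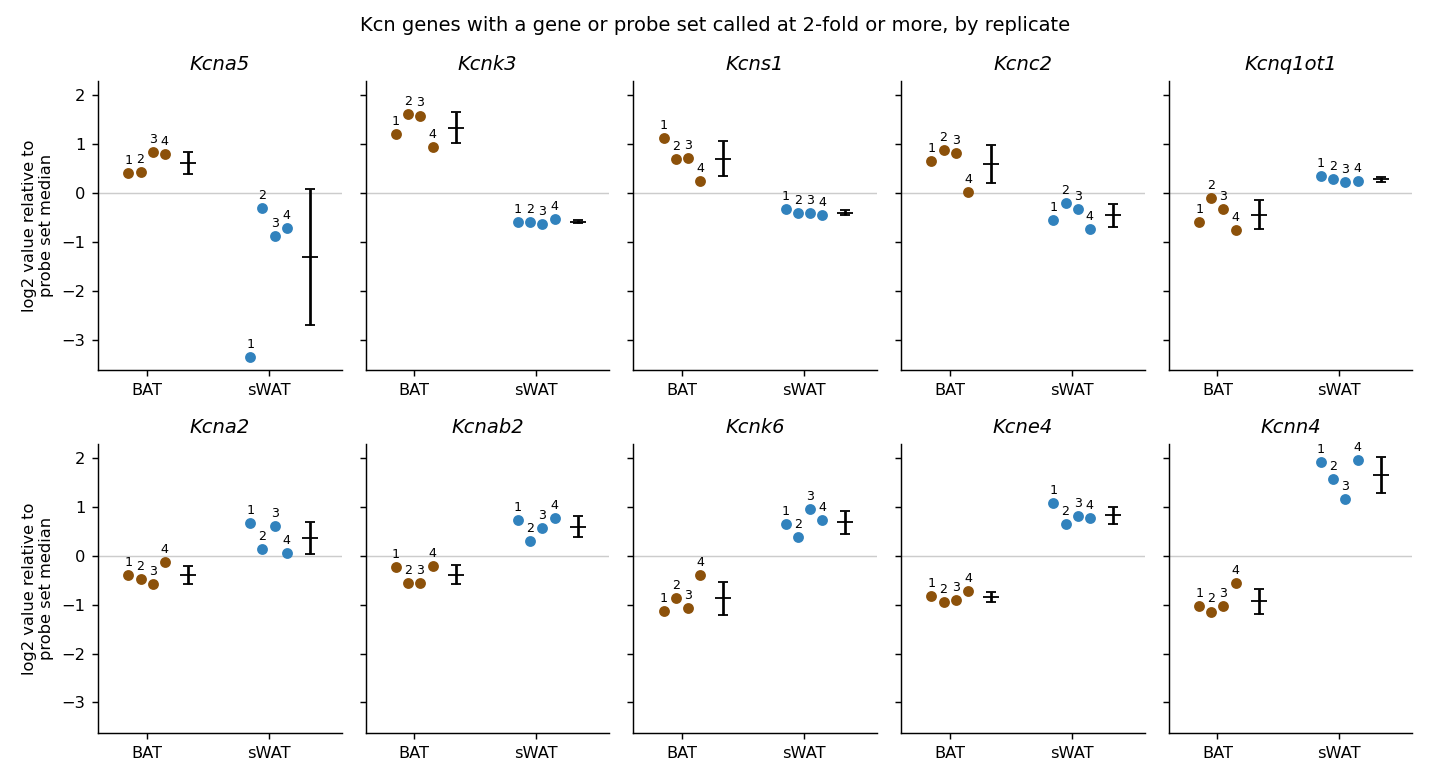
Values of each replicate (log2, relative to the probe set's median over all arrays, vertical axis; numbers are replicate numbers) in BAT and sWAT for the 10 Kcn genes with a gene or a probe set called at 2-fold or more; bars mark each tissue's mean ± SD (n = 4). The tissues do not overlap in any of the 10 genes, and sWAT replicate 1 of Kcna5 lies far below the other sWAT replicates.

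The calcium- and sodium-activated channels gave the largest difference of the family. Of 11 genes 3 were higher and 1 was lower, or 27.3% and 9.09% beside 21% and 17.5% of all genes. Kcnn4, whose upstream window held a GC-box and an Ets motif, encodes the intermediate-conductance channel that sustains calcium entry in activated T and B cells and is also found in red blood cells and fibroblasts. It had values of -1.03, -1.14, -1.02 and -0.55 in BAT, against 1.91, 1.57, 1.16 and 1.97 in sWAT. The groups stood far apart, and the sWAT replicates differed among themselves by more than 3 of the BAT replicates did. The difference was -2.58 ± 0.15 (adjusted p = 6.59e-05), or 6.0-fold lower in BAT, and its probe sets, 1421038_a_at and 1435945_a_at, gave -2.53 and -2.64. With BAT replicate 4 the difference in the pair was -2.52. The B cell, T cell and mitosis markers were lower in BAT as Kcnn4 was, and their part in this difference was not tested. The probe sets ranked the sWAT replicates differently, since replicate 3, which holds an array of low 5' signal, was the lowest in 1421038_a_at at 0.84 and the highest in 1435945_a_at at 1.47.

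The small-conductance relatives of Kcnn4 were all higher in BAT. These channels open on calcium without voltage sensing and shape firing in neurons, and Kcnn2 and Kcnn3 also occur in heart, muscle and endothelium. Kcnn1 differed by 0.74 ± 0.13 (adjusted p = 0.00488), with values of 0.57, 0.21, 0.41 and 0.56 in BAT, against -0.45, -0.37, -0.12 and -0.28 in sWAT. Kcnn2 differed by 0.67 ± 0.14 (adjusted p = 0.00994) and Kcnn3 by 0.57 ± 0.12 (adjusted p = 0.0102). In none of the 3 genes did the replicates of the tissues overlap, and without replicate 2 Kcnn3 was no longer called (adjusted p = 0.0591). The large-conductance channel was different: its pore gene Kcnma1 was at -0.11 ± 0.14, with a 95% interval of -0.45 to 0.23 and probe sets from -0.43 to 0.45, none of them called. Its smooth muscle subunit Kcnmb1 was at 0.23 (adjusted p = 0.20), and Kcnmb2, Kcnmb4, the sodium-activated Kcnt1 and Kcnt2 and the sperm channel Kcnu1 were not called either.

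Among the 31 voltage-gated pore subunits, 9 were higher in BAT and 1 was lower, shares of 29% and 3.23% beside the background of 21% and 17.5%. Kcna5, a delayed rectifier of heart, skeletal muscle and vascular smooth muscle, had the largest fitted difference and the least even values. They were 0.42, 0.43, 0.83 and 0.80 in BAT, against -3.35, -0.30, -0.87 and -0.71 in sWAT. The groups did not overlap, but sWAT replicate 1 stood far below the other sWAT replicates on both of its arrays. The difference was 1.93 ± 0.44 (adjusted p = 0.0133), or 3.80-fold, and without replicate 1 it was 1.31 (adjusted p = 0.00997). The methods' paired t-test gave an adjusted p of 0.135 for Kcna5. In BAT replicate 4 alone against sWAT the gene stood at 2.11 (adjusted p = 0.218).

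Kcns1, an electrically silent subunit that joins other voltage-gated pores and slows them, had values of 1.13, 0.70, 0.72 and 0.25 in BAT, against -0.32, -0.41, -0.41 and -0.45 in sWAT. BAT replicate 1 was the highest and BAT replicate 4 the lowest of BAT, and the sWAT replicates lay within a narrow band under them. The difference was 1.10 ± 0.15 (adjusted p = 0.0014). Kcnc2, a fast delayed rectifier best known from rapidly firing interneurons, had values of 0.65, 0.88, 0.83 and 0.02 in BAT, against -0.55, -0.20, -0.33 and -0.73 in sWAT. BAT replicate 4 lay well under the other BAT replicates and closer to sWAT than to them. The difference was 1.05 ± 0.13 (adjusted p = 0.000933), while BAT replicate 4 alone against sWAT gave 0.47 (adjusted p = 0.183). Without replicate 1 both genes kept their calls but fell just under 2-fold, at 0.98 for Kcns1 and 0.996 for Kcnc2.

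The other 6 called voltage-gated genes that were higher in BAT differed by 0.46 to 0.90. They were the silent subunits Kcng2 (0.90 ± 0.18) and Kcns3 (0.67 ± 0.13), the muscle and heart channel Kcna7 (0.67 ± 0.12), the rapidly inactivating Kcnc4 of fast skeletal muscle and neurons (0.65 ± 0.15), the axonal channel Kcna1 (0.61 ± 0.13) and the neuronal Kcnh3 (0.46 ± 0.14). Their adjusted p-values ran from 0.00482 for Kcna7 to 0.0369 for Kcnh3. Kcna1 was the only one of the 6 in which the tissues overlapped, with 0.16, 0.39, 0.29 and 0.09 in BAT, against -0.51, 0.12, -0.41 and -0.69 in sWAT. Skeletal muscle markers moved in the same direction as these genes, Schwann cell and nerve markers were higher in 3 of 7, and their part in the differences was not tested. Kcnc4 lost its call without replicate 2 (adjusted p = 0.0645), and Kcnh3 lost it in each of the 4 fits that left out a replicate number (adjusted p = 0.054 to 0.112).

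Kcna2, an axonal delayed rectifier, was the voltage-gated gene that was lower in BAT. Its values were -0.39, -0.47, -0.57 and -0.13 in BAT, against 0.68, 0.13, 0.61 and 0.05 in sWAT. The tissues did not overlap, but BAT replicate 4 and sWAT replicate 4 were only 0.18 apart. The difference was -0.76 ± 0.19 (adjusted p = 0.0172), and it was no longer called without replicate 1 (-0.66, adjusted p = 0.0728) or without replicate 3 (-0.62, adjusted p = 0.0513). Of its 4 probe sets 3 were lower in BAT, by -0.82 to -1.19, and the last stood at 0.09. Among the 21 voltage-gated genes not called were Kcna3, the lymphocyte channel that works beside Kcnn4 in T cells, at 0.16 (95% interval -0.17 to 0.50), Kcnq1, a slow delayed rectifier of heart and epithelia, at 0.28 (-0.05 to 0.61), and Kcnh2, a cardiac repolarising channel, at -0.10 (-0.42 to 0.23).

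The accessory subunits were called in both directions, 2 of 12 higher and 2 lower, or 16.7% each way beside 21% and 17.5% of all genes. Kcne4, a membrane-spanning subunit that reduces the current of several voltage-gated pores, Kcna3 among them, had the smallest standard error of the 7 genes past 2-fold. It had values of -0.82, -0.94, -0.90 and -0.71 in BAT, against 1.08, 0.65, 0.82 and 0.77 in sWAT. All 4 pairs differed by a similar amount and the tissues were far apart. The difference was -1.67 ± 0.12 (adjusted p = 0.000132), or 3.19-fold lower in BAT, and in pair 4 it was -1.48.

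Kcnab2, a cytoplasmic beta subunit that binds the Kcna pores and resembles aldo-keto reductases, had gene values of -0.23, -0.55, -0.55 and -0.21 in BAT, against 0.74, 0.30, 0.57 and 0.77 in sWAT. Both tissues were even and did not overlap. The difference was -0.98 ± 0.12 (adjusted p = 0.000765), just under 2-fold, and it averaged a probe set, 1416956_at, at -2.03 ± 0.14 with another, 1425885_a_at, at 0.07 ± 0.16 that was not called. The related Kcnab1 (0.49 ± 0.11, adjusted p = 0.0138) and Kcnab3 (0.40 ± 0.12, adjusted p = 0.035) were higher in BAT. Kcnab1 was not called without replicate 2 (adjusted p = 0.0893), nor Kcnab3 without replicates 1, 2 or 4 (adjusted p = 0.0887, 0.169 and 0.102). The other Kcne genes and the 4 Kcnip genes, which encode calcium sensors that bind Kcnd pores, were not called. Kcnip3 averaged a probe set called higher, 1418544_at at 0.68 ± 0.15 (adjusted p = 0.0131), with 1449129_a_at at 0.015, which was not called.

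**Figure D3:**
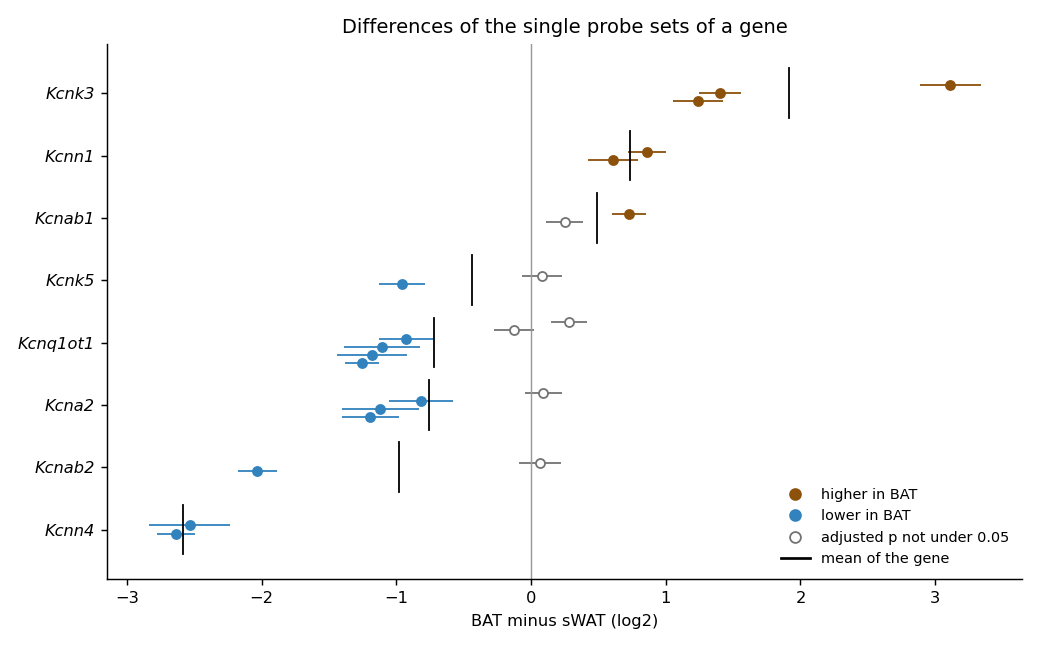
Difference between BAT and sWAT (BAT minus sWAT, log2, horizontal axis) for each probe set of 8 Kcn genes that have more than 1 probe set; points are fitted differences, bars standard errors (n = 4 per tissue) and vertical lines the gene's mean. Kcnab2, Kcnk5 and Kcna2 each join called probe sets with a probe set near 0, while both probe sets of Kcnn4 and all 3 of Kcnk3 lie on the same side.

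Probe sets of a gene often disagreed in size, and 46 of the 84 genes had more than 1 probe set. Of the 167 Kcn probe sets, 29 were higher and 15 lower in BAT, which were 17.4% and 8.98% against 15.1% and 17.3% of all 45101 probe sets. At 2-fold or more 6 were higher and 10 lower, 3.59% and 5.99% against 6.1% and 9.56% of all probe sets. No gene had probe sets called in opposite directions. Kcnip3, Kcnd3, Kcnj9 and Kcna6 were not called as genes, but each had a probe set called higher in BAT.

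The inward rectifiers, which pass current mainly into the cell and hold the resting potential, had 3 of 15 genes higher and 2 lower, or 20% and 13.3% beside 21% and 17.5% of all genes. None was past 2-fold, where 7.13% and 8% of all genes were. Kcnj8 encodes the pore of the ATP-sensitive channel of vascular smooth muscle and pericytes. Its values were 0.41, 0.86, 0.91 and -0.26 in BAT, against -0.55, 0.31, -0.65 and -0.29 in sWAT. The tissues overlapped, with BAT replicate 4 level with sWAT replicate 4, at a difference of 0.03. The fitted difference was 0.78 ± 0.24 (adjusted p = 0.0401) and was not called without replicates 1, 2 or 3, at 0.72, 0.85 and 0.51 (adjusted p = 0.136, 0.0779 and 0.0883). Smooth muscle and pericyte markers were higher in BAT in 3 of 10 and lower in none, Abcc9 included in the list, with means of -0.05 to 0.41 in BAT against -0.57 to 0.01 in sWAT.

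Kcnj11, the ATP-sensitive pore of pancreatic beta cells and skeletal muscle, was higher by 0.43 ± 0.13 (adjusted p = 0.0374) and lost the call without replicates 1, 2 or 4 (adjusted p = 0.105, 0.137 and 0.0704). Of the sulphonylurea receptors that pair with these pores, Abcc8 was higher in BAT, at 0.53 ± 0.15 (adjusted p = 0.0314), and Abcc9 was not called, at 0.22 (adjusted p = 0.373). Kcnj12, a strong rectifier of heart and skeletal muscle, was higher by 0.56 ± 0.11 (adjusted p = 0.00799), while its close relative Kcnj2 stood at 0.12 (95% interval -0.16 to 0.38). In the other direction, Kcnj10, the potassium-buffering channel of glia and kidney, had values of -0.12, -0.34, -0.55 and -0.64 in BAT, against 0.87, 0.00, 0.98 and 0.45 in sWAT. The tissues did not overlap, but sWAT replicate 2 lay near the highest BAT replicate. The difference was -0.98 ± 0.19 (adjusted p = 0.00731), and the methods' paired t-test gave an adjusted p of 0.0868. Kcnj14, another strong rectifier, was lower by -0.75 ± 0.16 (adjusted p = 0.0104).

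The annotation also placed 3 noncoding RNAs at Kcn loci among the members. Kcnq1ot1, the long antisense transcript made from the paternal chromosome within Kcnq1, which silences neighbouring imprinted genes, was lower in BAT. Its values were -0.58, -0.09, -0.32 and -0.76 in BAT, against 0.35, 0.30, 0.22 and 0.25 in sWAT. The sWAT replicates were nearly level and the BAT replicates spread below them. The difference was -0.72 ± 0.15 (adjusted p = 0.00849; 0.0671 with the methods' paired t-test). Of its 6 probe sets 4 were lower, by -0.93 to -1.25, and those at -0.13 and 0.28 were not called. Kcnmb4os1 (0.25 ± 0.14, adjusted p = 0.184) and Kcnmb4os2 (-0.35 ± 0.14, adjusted p = 0.085) were not called.

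Because sex-linked genes of BAT replicates 1 to 3 differed from those of all other replicates, genes called without replicate 4 were read in pair 4, which that fit did not use. The sign in pair 4 was the same in 23 of 23 such Kcn genes, and in 95% of the 5660 such genes over the whole array. Among the 27 genes called over all replicates, a fit that includes pair 4, the difference of pair 4 was at least 0.5 times the mean of pairs 1 to 3 in 23 genes and smaller than that mean in 18. With BAT replicate 4 alone against the 4 sWAT replicates, 7 genes were called higher and 5 lower, 8.33% and 5.95% of the family against 10.7% and 9.08% of all genes, and all 12 had been called with the same sign over all replicates. Of the 7 genes past 2-fold, Kcna5 and Kcnc2 were not called in this setting.

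**Figure D4:**
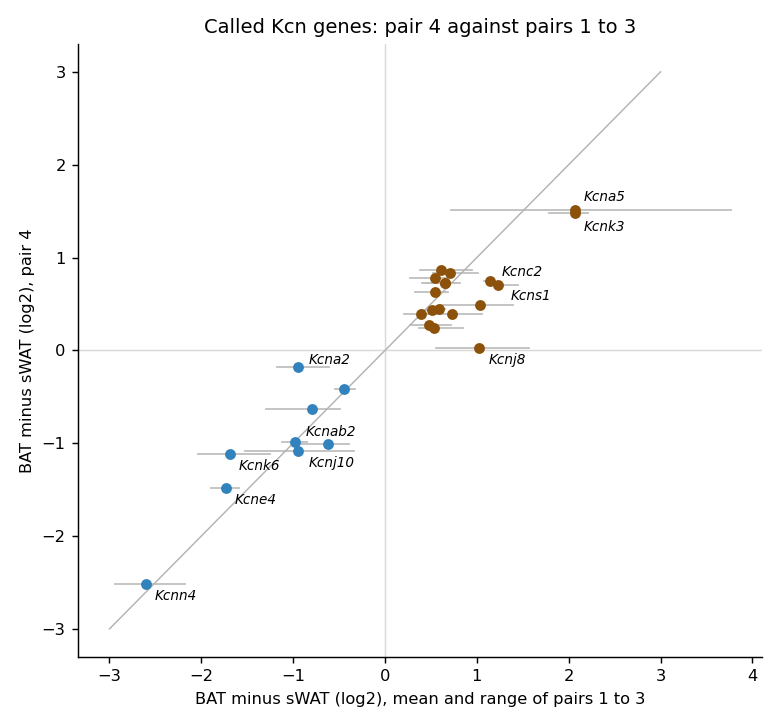
Difference between BAT and sWAT (BAT minus sWAT, log2) in pair 4 (vertical axis) against the mean of pairs 1 to 3 (horizontal axis; grey bars give the range of those 3 pairs) for the 27 Kcn genes called over all 4 pairs; brown points were called higher and blue points lower in BAT, and the diagonal marks equal values. All points share their sign on both axes, and Kcnj8 and Kcna2 lie nearest to 0 in pair 4.

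A wider list of potassium handling genes was read beside the channels. Of 53 genes listed (pumps, cotransporters, exchangers, channel partners and their kinases) 45 were measured, of which 18 were higher in BAT, 2 were lower and 25 were not called, with a median of 0.30, beside 21% called higher, 17.5% called lower and a median of 0.15 over all genes. The largest difference among those higher in BAT was in Slc24a3, an exchanger that moves potassium and calcium out of the cell against sodium, with values of 1.26, 1.40, 1.33 and 0.63 in BAT, against -0.91, -0.65, -0.89 and -1.5 in sWAT. The tissues were far apart and the pairs even, at 2.14 ± 0.11 (adjusted p = 4.87e-05). Fxyd1, a regulator of the sodium pump in heart and muscle, was higher by 1.69 ± 0.24 (adjusted p = 0.00162). Tmem38b and Tmem38a, which form potassium-permeable counter-ion channels of the endoplasmic and sarcoplasmic reticulum, were higher by 1.51 ± 0.16 (adjusted p = 0.000533) and 1.34 (adjusted p = 0.000617). Abcb8 and Ccdc51, described as subunits of an ATP-sensitive potassium channel of mitochondria, were higher by 1.15 (adjusted p = 0.0052) and 0.94 (adjusted p = 0.00635). Skeletal muscle fibre markers were higher in BAT too, in 14 of 15, and their part in the differences of this list was not tested.

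The genes of this list that were lower in BAT were Fxyd5 and Wnk1. Fxyd5, a sodium pump regulator that also weakens cell adhesion, had values of -1.66, -0.89, -0.89 and 0.00 in BAT, against 1.63, 1.17, 0.63 and 1.69 in sWAT. BAT replicate 4 lay closest to sWAT without overlap, and the difference was -2.14 ± 0.28 (adjusted p = 0.00133). Wnk1, a kinase that controls chloride and potassium cotransport, was lower by -0.53 ± 0.11 (adjusted p = 0.00903), with -0.32, -0.52, -0.35 and 0.02 in BAT, against 0.23, 0.00, 0.26 and 0.48 in sWAT. Those replicates overlapped, and without replicate 2 Wnk1 was not called (adjusted p = 0.0533).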

How the data were processed

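RNA of BAT and sWAT was hybridised to Affymetrix mouse genome arrays, 4 replicates per tissue and 2 arrays per replicate. The deposited values are log2 intensities that the authors normalised by RMA with quantile normalisation in GeneSpring and set relative to each probe set's median (no row median here differed from 0 by more than 5e-07). No detection calls were used, so dim probe sets stayed in. Standard errors of the main fit rest on the spread of the 4 equal-numbered pair differences, moderated over all genes, not on the spread within a tissue. The 2 arrays of each replicate were averaged first. The numbers were not shown to pair the samples, and counts without the block are given below.

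Probe sets were named from GEO's platform annotation, where 34958 of 45101 had 1 symbol, 932 had several and 9211 had none. Arrays of a replicate, then probe sets of a gene, were averaged. All 18194 genes were fitted with limma 3.58.1 in R 4.3.3, blocked on replicate number because the methods use a paired test, with Benjamini-Hochberg adjustment; the fit was tested on simulated data. Where replicates are not separate animals, p-values measure only the spread between samples. Alternatives were no block, a paired t-test, robust variances, single arrays, replicates left out, array centring, other probe set rules, a stricter threshold and a variance filter. That t-test was run over the 4 pairs of averaged arrays and is not the study's own run of its test. At 2-fold or more it called 3388 probe sets, fewer than the study reported.

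The members and gene lists were chosen with earlier results of these data known. Named genes are those called at 2-fold, by gene or probe set, the extremes of each class, the Kcn genes the study names (1 was not analysed here) and the largest differences of the potassium handling list. Other members named were chosen after their values were seen. Python 3.11.15, pandas 2.3.3 and matplotlib 3.10.9 were used for sequences and figures.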

Additional observations from a re-analysis of the deposited data

Results flagged for a closer look

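Of 40 groups of 4 replicates tested for a single distant value (20 named genes in each tissue), 1 was found, where chance finds about 1 in 20. Fxyd1 stood at 0.40 in BAT replicate 1, against 1.16 to 1.19 in the other BAT replicates. That replicate includes an array of low 5' signal, whose part in the value was not tested. Fxyd1 kept its call without replicate 1, at 1.79 (adjusted p = 0.00859).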

How the results depend on the processing

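None of the 20 genes tested above for a single distant value reversed its direction under any alternative run. Genes that were not called could change sign. Kcne3 went from -0.03 to 0.16, and Kcnj15 from 0.09 to -0.55, when BAT replicate 4 alone was set against sWAT. The medians of the 5 protein-coding classes and of all Kcn genes moved by less than the SD of the medians of the 4 pairs. Leaving out 1 of 4 pairs can hardly move a median past that limit, so those runs do not test stability. At an adjusted p under 0.01 the 18 genes called higher became 9 (10.7% of the family, beside 11.1% of all genes). With the paired t-test over pairs of averaged arrays the 9 called lower became 5 (5.95%, beside 9.55% of all genes). That test called 17 genes in all (20.2%, beside 19.6% of all genes), 15 of them among the 27. The 12 that missed its threshold were Kcna5, Kcnj10, Kcnq1ot1, Kcna2 (adjusted p = 0.115), Kcnj8 (0.182), Kcnn2, Kcnj11, Kcnj14, Kcng2, Kcnc4, Kcna1 and Kcnh3, and Fxyd5 (0.0569) and Fxyd1 (0.0572) missed it too. Probe sets called higher, 29, became 12 with the paired t-test and 11 at the stricter threshold (7.19% and 6.59%, beside 4.97% and 7.31% of all probe sets). Those called lower, 15, became 4 and 9 (2.4% and 5.39%, beside 6.37% and 10.9% of all probe sets). The 10 past 2-fold lower became 4 with the paired t-test (2.4%, beside 4.7% of all probe sets). With arrays centred on their medians, which brought the median of all genes to 0.09, 5 genes were lower by 2-fold in place of 3. These were 5.95% of the family, beside 8.51% of all genes.

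The numbers were not shown to pair the samples, since deviations of equal-numbered samples correlated at -0.23, 0.06, -0.35 and 0.23. Without the replicate block 26 genes were called higher and 10 lower (31% and 11.9%, beside 28% and 19.1% of all genes). Of these, 26 were among the 27, and Kcnj8 was lost (adjusted p = 0.0523). Probe sets called higher rose to 44 (26.3%, beside 21.7% of all probe sets). Leaving out each replicate number in turn gave 12 to 18 genes higher and 7 to 8 lower (over all genes 12.9% to 20.3% higher and 12.6% to 16.9% lower). Past 2-fold there were 2 to 6 higher and 3 to 5 lower (6.74% to 7.45% and 6.75% to 8.7% of all genes). Of probe sets, 17 to 32 were higher and 10 to 14 lower (8.95% to 14.3% and 12.7% to 16.8% of all probe sets). Past 2-fold there were 4 to 9 higher and 7 to 11 lower (5.88% to 6.35% and 8.33% to 10.4% of all probe sets). Replicate 1 took genes past 2-fold higher to 2 and probe sets higher to 18, and replicate 2 took genes past 2-fold lower to 5 and probe sets higher to 17. Class medians ranged over 0.12 to 0.31 for accessory subunits, 0.12 to 0.30 for calcium- and sodium-activated channels, 0.14 to 0.29 for inward rectifiers, 0.17 to 0.29 for two-pore-domain channels and 0.15 to 0.32 for voltage-gated subunits, and 0.12 to 0.29 for all Kcn genes.

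Of alternatives chosen after seeing the data, BAT replicate 4 alone against sWAT gave a median difference of 0.21 over the Kcn genes, beside 0.147 over all genes. That fit assumes that a lone BAT sample varies like sWAT. Without the 2 arrays of low 5' signal and without the block 34 genes were called higher (40.5%, beside 34.3% of all genes). Kcnn4 had no value once probe sets marked as shared between transcripts were left out. The cause of these changes was not tested. Since no level or detection call is at hand, a gene near 0 may differ too little or be too dim to tell.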
